A study of Mus musculus with 2 samples.

Results

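The 34 genes examined here encode the proteins that bring pyruvate into mitochondria, turn it into acetyl-CoA and oxidise it in the tricarboxylic acid (TCA) cycle, together with 3 cytosolic enzymes that run the same kinds of reaction outside mitochondria. They were chosen by gene symbol, and every probe set of the array whose single annotated symbol was on the list was taken. Of the 34 genes, 33 had such a probe set, out of 18194 genes named on the array, and the symbol of the pyruvate carrier gene Mpc2 had none and was not analysed here.

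The study compared infarcted mouse hearts, in which the left anterior descending coronary artery had been ligated permanently, with hearts of sham-operated mice that went through the same surgery without ligation. Both groups were C57BL/6J males, 10 weeks old, with no engineered allele and no drug named in the labels, and hearts were taken on day 3. Each group was a pool of heart RNA from 3 mice on 1 Affymetrix GeneChip Mouse Genome array. With 2 arrays and no replicates there was no error to test against, and each difference given is the gap between these pools alone. Whole hearts were used per the labels, with no split into infarcted and remote muscle.

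Pyruvate enters the mitochondrial matrix through a carrier made of MPC1 and MPC2. The pyruvate dehydrogenase (PDH) complex then converts it irreversibly to acetyl-CoA, and PDH kinases switch the complex off by phosphorylating its E1 alpha subunit while PDH phosphatases switch it on again. The cycle burns the acetyl groups of glucose and fatty acids alike, and in the heart, where mitochondria fill much of the cardiomyocyte, it supplies most of the electrons for oxidative phosphorylation.

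Nearly all of these genes had lower values in the infarct pool, by a modest and rather uniform amount. Values are RMA values, a log2 measure of probe set brightness, and a gene is represented by its brightest probe set. A gene entered the comparison when this probe set was at or over the array median (6.35 in the infarct pool, 6.36 in the sham pool) on either array, which held for all 33 measured members on both arrays and for 11962 genes in total. Of the 33 members, 31 had a negative difference (infarct minus sham), against 49.8% of all genes compared. The zero was also placed at the mean of the hybridisation controls, foreign transcripts added for the hybridisation step and not to the RNA of the pools. At this zero, 23 of the 33 were negative. It is called the spike-in zero from here on, a name that leaves out the poly-A controls, whose zero differed. Suclg1 lay almost at this zero (-0.00061) and ranked 2156 from the lowest of the 11962 genes, so most genes compared lay above it. With the zero at the poly-A controls, 31 of the 33 were negative, and the share of all genes below that zero was not counted. The members' median difference was -0.37, beside a median of 0 over all genes compared, and their quartiles were -0.48 and -0.29. A difference of at least 1.5-fold was reached downwards by 5 members (Pdk2, Pdp2, Pdk1, Suclg2 and Idh2), where 6.31% of all genes did so, and upwards by 1 (Pdk3), where 10.3% did so. At the spike-in zero only Pdk2 and Pdp2 were 1.5-fold lower (1.88% of all genes), and with the zero at the housekeeping genes 27 members were (28% of all genes), while Pdk3 no longer passed upwards (3.95% of all genes). At 2-fold, 2 members were lower, Pdk2 and Pdp2 (1.26% of all genes), and 0 were higher (3.73% of all genes). At the threshold of the study, 1.4 on the log2 scale, 0 members passed downwards or upwards (0.284% and 1.49% of all genes). In whole tissue, fewer cells of a type and less RNA per cell cannot be told apart.

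**Figure D1:**
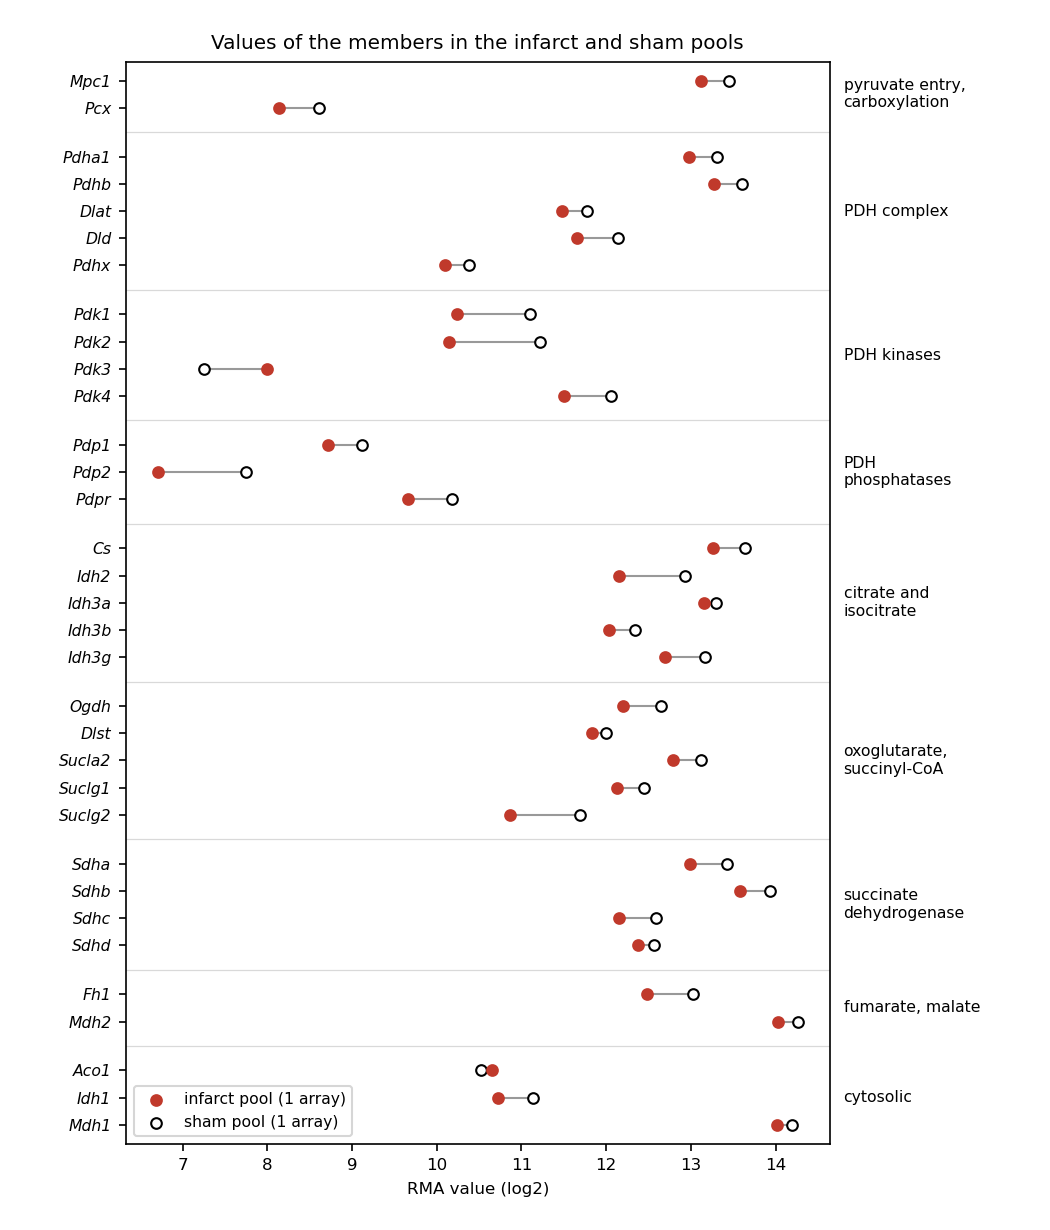
RMA values (log2, x axis) of the 33 measured members by their brightest probe set in the infarct pool (red) and the sham pool (open circles), 1 array each, grouped by role. The infarct value lies left of the sham value for 31 genes and right of it for Pdk3 and Aco1.

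The zero of this scale was not firm, and the size of the shared difference was close to its uncertainty. The 18 probe sets of hybridisation controls had a mean difference of -0.32, while the 11 housekeeping genes measured averaged 0.39, ranging from 0.0099 to 1.12, and the poly-A controls averaged 0.057. The median of the members was -0.050 at the spike-in zero, -0.42 at the poly-A controls and -0.76 at the housekeeping zero. Any such move of the zero shifts all genes equally and leaves the differences between members untouched. Within a gene, probe sets scattered with an SD of 0.23 over 5192 genes, and of 0.25 among the 22 members that had at least 2 bright probe sets. This SD covers probes and not mice.

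Control of the PDH complex showed the widest spread of all roles. The 4 kinase genes differed in direction as well as in size. Pdk2, a kinase isoform abundant in heart and many other tissues, had a value of 10.15 in the infarct pool and 11.22 in the sham pool by its single probe set. That made it 2.11-fold lower (difference -1.08), rank 111 from the lowest of 11962 genes. Pdk4, the isoform that fasting and fatty acids induce in heart and skeletal muscle, had 11.51 in the infarct pool and 12.06 in the sham pool, a difference of -0.55 that stopped short of 1.5-fold. It passed 1.5-fold under quantile normalization and with the zero at the poly-A controls or the housekeeping genes (-0.94), and was -0.23 at the spike-in zero. Both genes lay below 0 under all 12 settings of the processing. Each has a single probe set, so only the scalings among these settings could move them.

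Pdk3 went the other way. Its value was 7.99 in the infarct pool and 7.26 in the sham pool, 1.67-fold higher (difference 0.74), again from a single probe set. It stayed above 0 under each of the 11 settings that measured it, with 0.35 at the housekeeping zero. Only the scalings among these settings could move its value. Its probe set was above the median but below the 75th percentile of both arrays. Set against Pdk2, Pdk3 was 1.82 higher in its log2 difference, and this gap ran from 1.82 to 1.83 over the settings. With a single probe set for each gene, only quantile normalization and removal of a loess trend could have moved it at all. Against Pdk4 the gap was 1.29. Of the 33 members only Pdk3 and Aco1 were above 0.

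Pdk1, the isoform known as a target of hypoxia-inducible factor, gave a less settled picture. Its brightest probe set read 10.24 in the infarct pool and 11.10 in the sham pool (difference -0.86), but a second one, with 10.45 in the infarct pool and 10.61 in the sham pool, differed by -0.17, and the third bright one by -0.22. All 3 lay below 0, and after averaging over the probe sets the gene was at -0.39 and no longer 1.5-fold lower.

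The stretches of 150 bases just before the annotated start of the kinase genes (RefSeq, build GRCm38.p6) are given because these genes differed in direction. They are printed 5′ to 3′ on the strand of the gene, with capitals for ACGTG, the core of the site that hypoxia-inducible factors bind, on either strand. Matches that overlap in a palindrome are counted on each strand. The stretch of Pdk1 lies at chr2:71873074-71873223 (plus strand), Pdk2 at chr11:95041372-95041521, Pdk3 at chrX:93832151-93832300 and Pdk4 at chr6:5496279-5496428 (all minus strand).
Pdk1: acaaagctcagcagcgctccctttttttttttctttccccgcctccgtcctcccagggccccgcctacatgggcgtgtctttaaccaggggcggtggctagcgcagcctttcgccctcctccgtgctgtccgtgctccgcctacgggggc
Pdk2: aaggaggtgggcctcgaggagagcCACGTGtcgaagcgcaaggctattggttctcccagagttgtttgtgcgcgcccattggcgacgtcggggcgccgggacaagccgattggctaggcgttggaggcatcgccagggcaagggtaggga
Pdk3: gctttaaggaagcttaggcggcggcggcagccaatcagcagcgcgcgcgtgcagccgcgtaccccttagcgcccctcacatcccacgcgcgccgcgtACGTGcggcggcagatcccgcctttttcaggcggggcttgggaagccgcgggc
Pdk4: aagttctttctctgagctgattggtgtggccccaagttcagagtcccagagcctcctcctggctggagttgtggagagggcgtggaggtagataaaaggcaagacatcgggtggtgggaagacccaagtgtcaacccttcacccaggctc
The core stood in the printed stretch of Pdk2, which was lower in the infarct pool, and of Pdk3, which was higher, and in neither Pdk1 nor Pdk4. Where RefSeq gave a gene 2 start windows, as for Pdk1 and Pdk2, the window with more matches is printed, or the first of equals. Windows from 250 bases before to 50 after the start were listed for 31 of the 34 members (not for Pdp1, Idh3a and Sdhc), and 10 of these 31 (32.3%) held the core, against 21.8% of all genes with such a window and 19.6% of all windows. A match is a run of letters and no evidence of binding.

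The phosphatases, which reverse the action of the kinases, were lower as well, all 3 of them under each of the scalings tried. Pdp2, a catalytic subunit, had 6.71 in the infarct pool and 7.75 in the sham pool, 2.06-fold lower (difference -1.04, rank 134 from the lowest), from a single probe set. For Pdp1, the catalytic subunit stimulated by calcium, the probe sets disagreed more than usual. One gave 8.71 in the infarct pool and 9.12 in the sham pool (difference -0.41), and the other, almost as bright in the sham pool, gave 8.05 in the infarct pool and 9.13 in the sham pool (difference -1.08). Averaged, Pdp1 stood at -0.74 and passed 1.5-fold. Pdpr, the regulatory subunit of the phosphatase, had 9.67 in the infarct pool and 10.18 in the sham pool (difference -0.51), and its 4 probe sets ran from -0.63 to -0.18. Thus 3 of 4 kinase genes and 3 of 3 phosphatase genes were lower in the infarct pool, with Pdk2 and Pdp2 the lowest of all members.

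The subunits of the PDH complex itself lay close together, and none reached 1.5-fold. Pdha1, the E1 alpha subunit that the kinases phosphorylate, had 12.98 in the infarct pool and 13.31 in the sham pool (difference -0.33), with -0.31 by its other probe set. Its partner Pdhb, the E1 beta subunit, had 13.28 in the infarct pool and 13.61 in the sham pool (difference -0.33). Dlat, the E2 acetyltransferase core, differed by -0.29, with 11.48 in the infarct pool and 11.77 in the sham pool. The 5 genes had a median of -0.33, and Dld, the E3 subunit shared with the oxoglutarate and branched chain complexes, was the lowest (-0.48, with 11.65 in the infarct pool and 12.14 in the sham pool). Pdhx, which tethers E3 to the core, differed by -0.29. The remaining probe set of Dlat gave -0.94, where the other 2 gave -0.29 and -0.32. At the spike-in zero, 3 of the 5 genes were negative and their median was -0.011. The gap of Pdk2 to Pdha1 was -0.74 and that of Pdp2 to Pdha1 was -0.71, and these gaps do not depend on the zero.

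Upstream of the complex, Mpc1, a subunit of the pyruvate carrier, differed by -0.33 (13.12 in the infarct pool, 13.45 in the sham pool). Pcx, the carboxylase that turns pyruvate into oxaloacetate and so refills the cycle, had 8.14 in the infarct pool and 8.61 in the sham pool (difference -0.47). Its value came from a probe set that the array carries as a control for the end of the transcript, and 4 of its 5 probe sets are such controls. All 5 lay below 0. Placed by their names, the controls differed by -0.11 (5′ end), -0.17 and -0.30 (middle) and -0.47 (3′ end), and the ordinary probe set by -0.67, which passes 1.5-fold. Among the controls the difference was lower at the 3′ end than at the 5′ end. The position of the ordinary probe set was not established, and the part of position in the result was not tested.

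**Figure D2:**
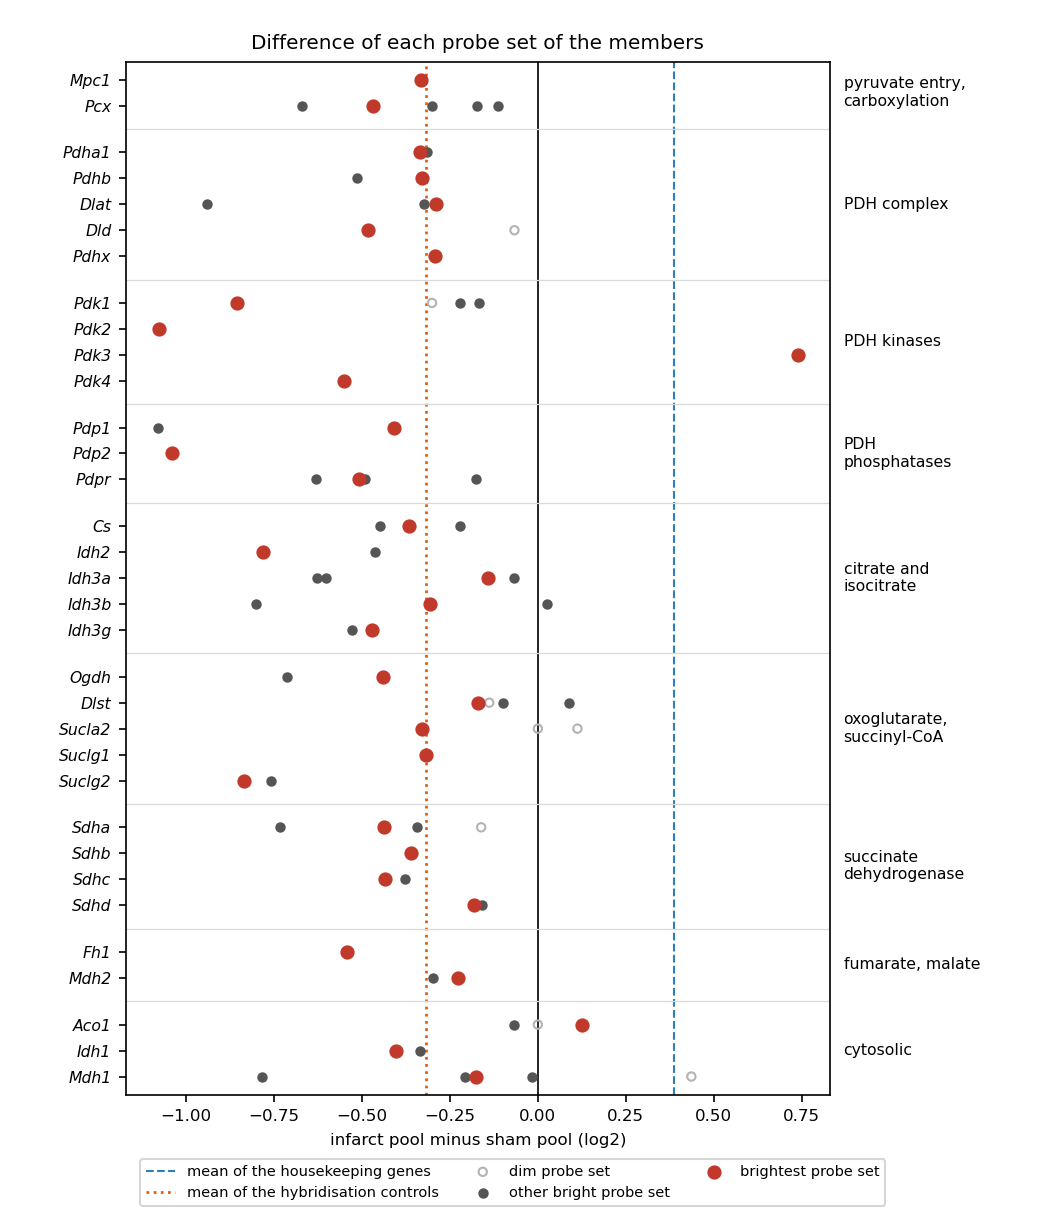
Difference between the infarct and sham pools (log2, x axis) for each of the 78 probe sets of the members: brightest of a gene in red, other bright ones in dark grey, dim ones as open circles. Of the 70 bright probe sets 66 lie below 0, and the dotted line of the hybridisation controls (-0.32) passes through the middle of the members.

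Of the 22 members with at least 2 bright probe sets, 19 had all of them below 0, and the exceptions were Idh3b, Dlst and Aco1. At the spike-in zero 9 of the 22 had all of them below 0, 4 had all above, and in 9 they lay on both sides. The SD between the probe sets of a member (0.25) was not far below the size of the members' median difference. Another 11 members were measured by 1 bright probe set only, among them Pdk2, Pdk3, Pdk4 and Pdp2.

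In the cycle itself, all 16 mitochondrial enzyme genes lay below 0, with a median of -0.36, and 2 of them reached 1.5-fold. At the spike-in zero, 11 were negative. Cs, citrate synthase, which admits acetyl-CoA to the cycle and is widely used as a measure of mitochondrial mass, had 13.27 in the infarct pool and 13.63 in the sham pool (difference -0.37), exactly the median of the members. Its 3 probe sets ran from -0.45 to -0.22.

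The isocitrate dehydrogenase genes were not alike. Idh2, the mitochondrial enzyme that makes NADPH, had 12.15 in the infarct pool and 12.93 in the sham pool, 1.72-fold lower (difference -0.78), and its other probe set gave -0.46. The NAD-dependent enzyme of the cycle is built of 3 kinds of subunit. Its regulatory subunit gene Idh3g differed by -0.47 (12.69 in the infarct pool, 13.16 in the sham pool), Idh3b by -0.31 (12.04 in the infarct pool, 12.34 in the sham pool) and the catalytic subunit gene Idh3a by -0.14 (13.15 in the infarct pool, 13.29 in the sham pool). The gaps of Idh2 to them were -0.31 for Idh3g (-0.34 to -0.12 over the settings), -0.47 for Idh3b (-0.81 to -0.26) and -0.64 for Idh3a (-0.69 to -0.26). The 4 probe sets of Idh3a formed pairs, at -0.63 and -0.60 and at -0.14 and -0.069, and those of Idh3b ran from -0.80 to 0.027.

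Succinyl-CoA ligase exists as an ATP-forming and a GTP-forming enzyme, which share the alpha subunit SUCLG1 and differ in the beta subunit. Suclg2, the beta subunit of the GTP-forming enzyme, had 10.86 in the infarct pool and 11.70 in the sham pool, 1.78-fold lower (difference -0.84), and its other probe set gave -0.76. Sucla2, the beta subunit of the ATP-forming enzyme, which prevails in heart, differed by only -0.33 (12.79 in the infarct pool, 13.12 in the sham pool), and Suclg1 by -0.32 (12.13 in the infarct pool, 12.45 in the sham pool). The gap of Suclg2 to Sucla2 was -0.51 and stayed between -0.73 and -0.43 over the settings. In the oxoglutarate dehydrogenase complex, the E1 gene Ogdh had 12.20 in the infarct pool and 12.64 in the sham pool (difference -0.44). Its other probe set gave -0.71, which passes 1.5-fold. The E2 gene Dlst had 11.83 in the infarct pool and 12.00 in the sham pool (difference -0.17), with probe sets on both sides of 0.

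Succinate dehydrogenase, which is also complex II of the respiratory chain, had its 4 subunit genes between -0.44 and -0.18, and 3 of the 4 were negative at the spike-in zero. The flavoprotein gene Sdha had 12.99 in the infarct pool and 13.43 in the sham pool, the iron-sulphur subunit gene Sdhb 13.58 in the infarct pool and 13.94 in the sham pool. The other bright probe sets of Sdha gave -0.73, which passes 1.5-fold, and -0.34. Of the membrane anchors, Sdhc differed by -0.44 and Sdhd by -0.18. Fh1, fumarase, differed by -0.54 (12.48 in the infarct pool, 13.03 in the sham pool), and mitochondrial malate dehydrogenase, Mdh2, differed by -0.23 (14.03 in the infarct pool, 14.26 in the sham pool).

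The 3 cytosolic enzymes had a median of -0.18, or 0.14 at the spike-in zero. Mdh1, the cytosolic partner of Mdh2 in the malate-aspartate shuttle, differed by -0.18 (14.01 in the infarct pool, 14.19 in the sham pool), close to Mdh2. Its 4 bright probe sets ran from -0.78 to -0.015. Idh1, the cytosolic NADPH-forming isocitrate dehydrogenase, had 10.73 in the infarct pool and 11.13 in the sham pool (difference -0.40), where mitochondrial Idh2 was at -0.78. Aco1, the cytosolic aconitase that doubles as an iron-sensing RNA-binding protein, had 10.65 in the infarct pool and 10.53 in the sham pool (difference 0.13), and was negative by its other bright probe set (-0.067) and at the housekeeping zero (-0.26).

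Motifs that are often named for genes of mitochondria were rare in the members' promoters, as they were in those of all genes. The search took fixed runs of letters close to the start, so variant or more distant sites would be missed. Searched on both strands in the same windows, TNAAGGTCA (a site of estrogen-related receptors), GCGCATGCG (NRF1) and AAGATGGCG (YY1) were each found in 1 of the 31 members (3.23%), against 1.43%, 1.95% and 1.64% of all genes in that order. These are the places, with the match in capitals, shown since each is the only one of its kind among the members.
Sdhd, chr9:50603800-50603828, minus strand: ttccgggttgtagagTGACCTTGAgccct
Ogdh, chr11:6292533-6292561, plus strand: taggtgttgtGCGCATGCGtaactcaact
Idh3g, chrX:73787009-73787037, minus strand: tcccctccccAAGATGGCGgaacagtgct
In the infarct pool these 3 genes were at -0.18, -0.44 and -0.47 relative to the sham pool, within the range of the members that held no such run.

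Genes around the cycle were counted by lists drawn up by function. Of the further TCA enzyme genes, Dhtkd1, which encodes an oxoadipate dehydrogenase related to OGDH, had 5.81 in the infarct pool, under the median of that array, and 6.88 in the sham pool (difference -1.07). Mrps36, now known to encode an adaptor of the oxoglutarate complex, differed by -0.38, and Csl was too dim to compare. The symbol Ogdhl had no single-symbol probe set and was not analysed here. Of 15 genes of anaplerosis and mitochondrial carriers, 10 were negative (8 at the spike-in zero) and the median was -0.34, with 2 at least 1.5-fold lower: the alanine transaminase gene Gpt2 (-1.06) and the malic enzyme gene Me3 (-0.79). None was 1.5-fold higher, the highest being Pck2 (0.44) and Me2 (0.32). At the spike-in zero only Gpt2 was 1.5-fold lower (-0.74) and 5 were 1.5-fold higher (24.7% of all genes), with Pck2 at 0.75 and Me2 at 0.64.

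All 15 genes for lipoate attachment, iron-sulphur clusters and assembly of succinate dehydrogenase were negative, with a median of -0.28, but only 7 were so at the spike-in zero. The lowest were Sirt3, the mitochondrial deacetylase (-0.64), and the assembly factor gene Sdhaf4 (-0.61), and the least different were Lias, lipoate synthase (-0.11), and Sdhaf2 (-0.16). Among 6 genes of lactate metabolism, in contrast, the directions were split. Ldhb, the heart-type lactate dehydrogenase subunit, had 12.57 in the infarct pool and 13.31 in the sham pool (difference -0.74), and Ldhd, which oxidises D-lactate, differed by -1.06. Ldha, the muscle-type subunit, had 13.09 in the infarct pool and 12.65 in the sham pool (difference 0.44). The lactate exporter gene Slc16a3 differed by 1.41, with 7.80 in the infarct pool and 6.38 in the sham pool, just over the median of that array (6.36). The gap between Ldhb and Ldha was -1.18 and stayed between -1.19 and -1.18 over the settings, of which the centrings cannot move it.

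**Figure D3:**
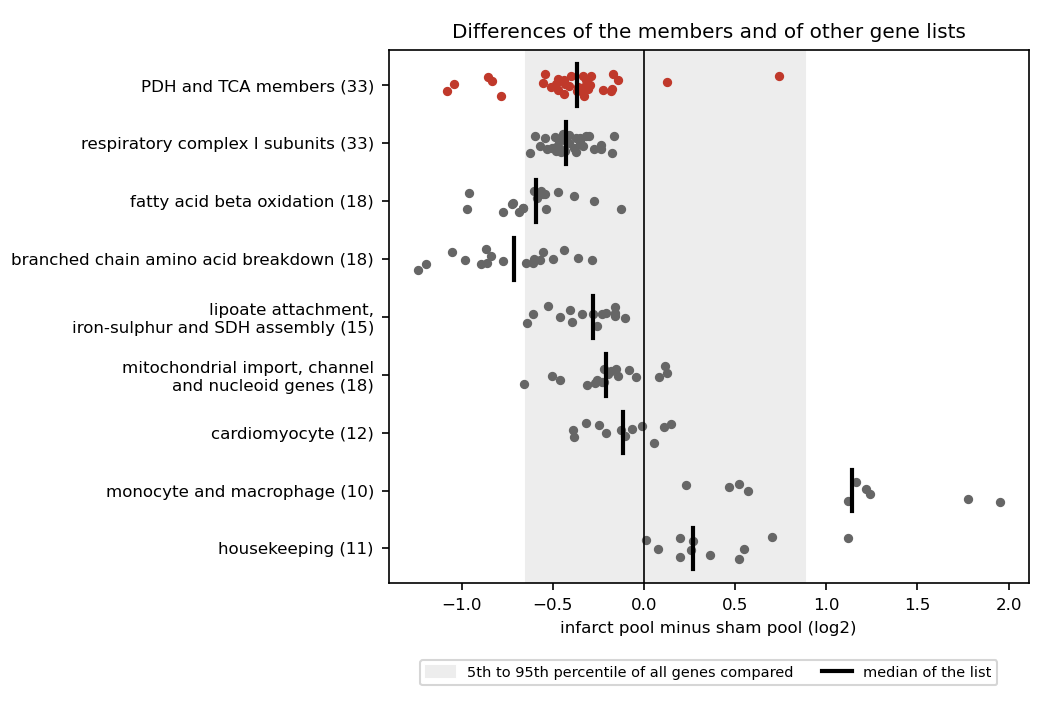
Differences between the infarct and sham pools (log2, x axis) of each gene compared, for the 33 members (red) and 8 other lists, with the number of genes in brackets; black bars are medians and the grey band spans the 5th to 95th percentile of all genes compared (-0.65 to 0.89). The median of the members (-0.37) lies between those of mitochondrial import genes (-0.21) and fatty acid oxidation genes (-0.59).

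Genes of other mitochondrial pathways were negative for the most part. The 33 complex I subunit genes compared, of the respiratory chain, centred on a median of -0.42, every one negative (26 at the spike-in zero), and 2 were 1.5-fold lower: Ndufs1 (-0.63) and Ndufs8 (-0.60). Fatty acid oxidation genes had a median of -0.59 with 10 of 18 at least 1.5-fold lower, led by Eci1 (-0.97) and Cpt2 (-0.96), and genes of branched chain amino acid breakdown had a median of -0.71 with 12 of 18 lower, led by Bckdha (-1.24) and Ivd (-1.19). Among the members the count was 5 of 33, and the difference between the lists was not tested. These counts moved with the zero as those of all genes did (1.88% lower at the spike-in zero, 6.31% as deposited and 28% at the housekeeping zero). For complex I, 0 were 1.5-fold lower at the spike-in zero and 31 at the housekeeping zero, for fatty acid oxidation 2 and 17, and for branched chain breakdown 4 and 18. Genes of mitochondrial import, channels and nucleoids had a median of -0.21 (0.11 at the spike-in zero), with Opa1 (-0.66) and Mfn2 (-0.50) lowest and Vdac2 (0.13) and Tomm20 (0.11) highest.

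Of 12 markers of cardiomyocytes, the cells richest in mitochondria, 9 were negative (3 at the spike-in zero), their median was -0.11, they ran from Ryr2 (-0.39) to Csrp3 (0.15), and 0 were 1.5-fold lower, or 5 at the housekeeping zero. Of these markers 8 were over 14 on both arrays, as were 2 of the members, where the highest value of any probe set was 14.90, and differences so near the top of the scale can be understated. The markers not over 14 on both arrays, a group chosen after the values were seen, differed in direction. They were Ryr2 (-0.39), Tnni3 (-0.38), Myoz2 (-0.32) and Csrp3 (0.15). Csrp3, the only one above 0, had 14.13 in the infarct pool and 13.99 in the sham pool, so it barely missed the cut. Tnni3 was over 14 on 1 array too, with 13.80 in the infarct pool and 14.18 in the sham pool. The sums of the 12 markers on the linear scale, 254479 in the infarct pool and 273232 in the sham pool, rest mainly on the brightest of them and were not set against the members. All 10 monocyte and macrophage markers were higher, with sums of 24886 in the infarct pool and 14722 in the sham pool, from Csf1r (0.23, below 0 at the housekeeping zero) to Msr1 (1.95). All 4 neutrophil markers measured (sums of 2202 in the infarct pool and 808 in the sham pool) and all 7 markers of dividing cells (3754 in the infarct pool and 886 in the sham pool) were higher too, whereas fibroblast markers ran from -0.34 to 1.28 and endothelial ones from -0.15 to 0.56. No cardiomyocyte, macrophage, fibroblast or endothelial marker was under the median of either array. The neutrophil marker Cxcr2 and the dividing cell markers Aurkb and Bub1 were under the median of the sham array. These were compared only through their infarct values, so their direction was fixed by the filter. The part that a different mix of cells has in the lower values of the members was not tested.

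**Figure D4:**
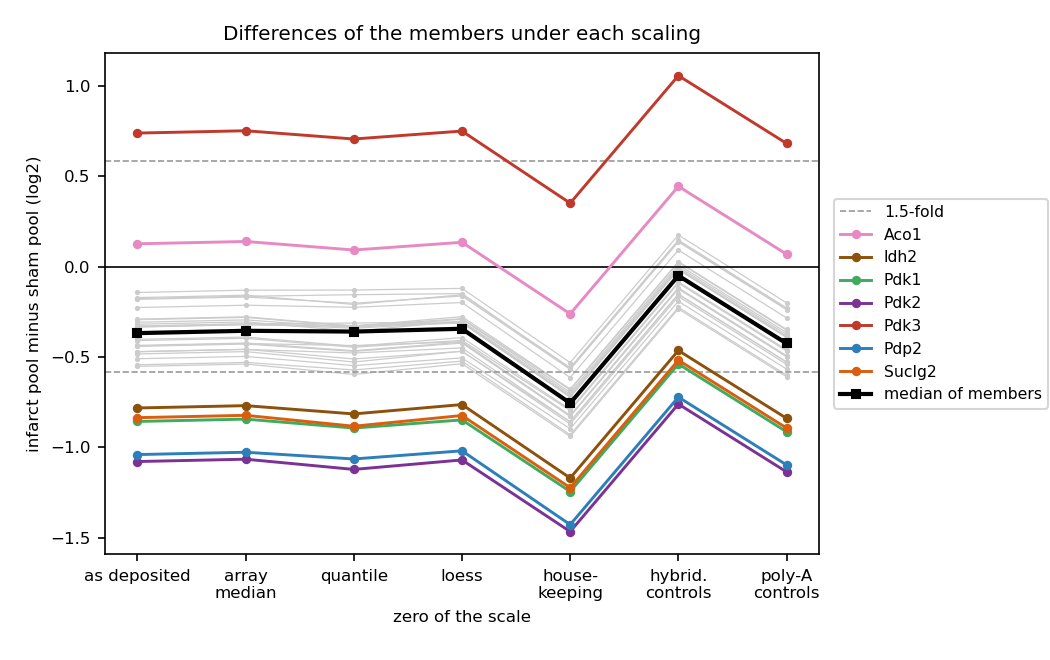
Differences between the infarct and sham pools (log2, y axis) of the 33 members as deposited and under 6 other scalings (x axis), with their median in black and the 1.5-fold lines dashed. The distances between genes hardly move, while the median runs from -0.76 (housekeeping genes) to -0.050 (hybridisation controls); Pdk3 is above 0 and Pdk2, Pdp2, Pdk1, Suclg2 and Idh2 are below 0 throughout.

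Set against the median of the members, which no centring affects, the genes that stood apart were few. Relative to it, Pdk2 stood at -0.71, Pdp2 at -0.67, Pdk1 at -0.49, Suclg2 at -0.47 and Idh2 at -0.41. Above it were Pdk3 at 1.11 and Aco1 at 0.49, followed by Idh3a at 0.22. In 22 of the 33 genes the difference lay between -0.6 and -0.2.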

How the data were processed

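The authors deposited log2 values made by RMA, as their processing notes name it, that is, background correction, normalization of both arrays together and 1 summary value per probe set. The RMA software is not given in the sources used here, and no scanner file was used. RMA makes the arrays alike in distribution, so that a change in total mRNA per heart cannot be seen. Of 45101 probe sets, 34958 carried 1 gene symbol, 932 several and 9211 none, through the annotation of the array; the latter kinds were left out of the genes. By Entrez ID, 34754 matched RefSeq genes of GRCm38.p6.

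A gene took its probe set of highest mean over both arrays and was compared if this reached the array median on at least 1 array; folds of 1.5 and 2 were counted. With 1 array per group there is no test and no p-value, and the number of arrays limits all precision. All members are named, and for every other list the rule was its 2 highest and 2 lowest genes, of which the text gives a part; the members and lists were chosen with earlier results of these data known. Alternatives were 6 scalings, 3 of them by centring on control or housekeeping genes, averaging of probe sets, omission of probe sets with the suffix _x_at or _s_at, absence of the filter, a filter at the 75th percentile and folds of 2 and of 1.4 on the log2 scale, which the study used. Omission of the array's control probe sets was added after seeing the data. Python 3.11.15, numpy 2.4.6, pandas 2.3.3, statsmodels 0.14.6 (loess, span 0.4) and matplotlib 3.10.9 were used.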

Additional observations from a re-analysis of the deposited data

How the results depend on the processing

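Over the settings tried, the number of members below 0 ran from 23 (centring on the hybridisation controls) to 32 (centring on the housekeeping genes) of 33. The share of all genes below 0 moves with the zero too. Aco1 lay at -0.26 at the housekeeping zero and ranked 7588 from the lowest of 11962 genes, so most genes compared lay below that zero. The count lower by at least 1.5-fold, 5 as reported, was 27 after centring on the housekeeping genes and 2 after centring on the hybridisation controls, 2 at a threshold of 2-fold and 0 at 1.4 on the log2 scale. The count higher, 1 as reported, was 0 after centring on the housekeeping genes, 0 with the 75th percentile as the filter, and 0 at either higher threshold. The median of the members was -0.76 after centring on the housekeeping genes and -0.050 after centring on the hybridisation controls, and otherwise -0.42 to -0.34. Single members moved by less than the SD between probe sets (0.23) in 289 of 360 recalculations. The other 71 were all 33 members under each of the 2 centrings just named, Dlat, Pdk1, Pdp1 and Sucla2 on averaging, and Idh3b without IDs ending in _x_at or _s_at. Many of the 289 were fixed in advance. A change of filter leaves a member's value as it was, and averaging cannot move a gene with a single probe set. No member that passed 1.5-fold changed sign. Leaving out the control probe sets moved Pcx to -0.67. No paired analysis was possible because each group is 1 pooled sample.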
